A study of Mus musculus with 6 samples.

Results

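The genes described here encode the acetylcholine receptor of the neuromuscular junction and genes known to respond when a muscle fibre loses its nerve. They were examined in quadriceps of male C57BL/6 mice aged 20 weeks. The group called MERKO carries a muscle-specific deletion of the estrogen receptor ERα (gene Esr1, genotype given as Er_alpha-/-), and the control group is wildtype, with 3 libraries each. The labels do not name the promoter that drives the deletion, and they do not say whether each library came from a separate mouse, and p-values here speak of the spread among these libraries alone. The members were 10 genes listed by symbol: the receptor subunits Chrna1, Chrnb1, Chrnd, Chrne and Chrng, the kinase Musk, the transcription factors Myog and Runx1, the adhesion molecule Ncam1 and the stress-response gene Gadd45a. Each symbol matched exactly 1 of the 48795 identifiers in the count table, and 9 of the 10 had enough counts to be tested.

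The muscle acetylcholine receptor is a ligand-gated cation channel that opens when the motor nerve releases acetylcholine. Its subunits are encoded by Chrna1, Chrnb1, Chrnd and either Chrng or Chrne, since the fetal γ subunit is replaced by the adult ε subunit as junctions mature. Agrin from the nerve binds Lrp4, which activates the receptor tyrosine kinase MuSK. With Dok7 and rapsyn, MuSK gathers receptors beneath the nerve ending. After denervation, myogenin (Myog) and other factors restore transcription of receptor genes along the whole fibre, and Runx1, Ncam1 and Gadd45a are known to rise in that state.

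The regulatory DNA just upstream of these genes was read first, since E-boxes, the sites of myogenin and MyoD, are known from receptor subunit promoters. The RefSeq promoter table (GRCm38.p6) held 8 of the 10 members, with 9 start sites, because Runx1 has 2. Chrnd and Ncam1 had no entry. The 250 bases before the start are printed 5′ to 3′ for Chrna1, the ligand-binding subunit, for the adult and fetal subunits Chrne and Chrng, and for Runx1, the member whose groups did not overlap. Capitals mark every match to the E-box CANNTG, which reads the same on both strands.
Chrna1, chr2:73580339-73580588, minus strand: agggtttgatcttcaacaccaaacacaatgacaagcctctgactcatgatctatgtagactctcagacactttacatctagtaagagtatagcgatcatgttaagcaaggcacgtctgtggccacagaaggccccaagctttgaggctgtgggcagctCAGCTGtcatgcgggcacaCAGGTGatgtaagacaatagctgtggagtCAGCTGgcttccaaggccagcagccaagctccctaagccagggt
Chrne, chr11:70619195-70619444, minus strand: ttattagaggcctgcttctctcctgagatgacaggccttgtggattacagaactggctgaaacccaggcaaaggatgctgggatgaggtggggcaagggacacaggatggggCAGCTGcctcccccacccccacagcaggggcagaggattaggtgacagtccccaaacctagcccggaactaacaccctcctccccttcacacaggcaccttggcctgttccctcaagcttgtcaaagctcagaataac
Chrng, chr1:87205561-87205810, plus strand: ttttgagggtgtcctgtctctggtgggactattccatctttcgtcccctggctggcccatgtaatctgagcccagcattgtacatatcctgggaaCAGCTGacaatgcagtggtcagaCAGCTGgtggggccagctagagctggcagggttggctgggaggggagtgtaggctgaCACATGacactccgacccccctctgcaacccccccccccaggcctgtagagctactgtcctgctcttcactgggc
Runx1 distal start, chr16:92826075-92826324, minus strand: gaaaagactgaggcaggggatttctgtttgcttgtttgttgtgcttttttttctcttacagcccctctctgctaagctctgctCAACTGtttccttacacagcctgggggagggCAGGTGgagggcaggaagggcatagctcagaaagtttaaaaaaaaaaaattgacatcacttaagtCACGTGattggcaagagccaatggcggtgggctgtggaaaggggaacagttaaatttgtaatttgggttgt
Runx1 proximal start, chr16:92697330-92697579, minus strand: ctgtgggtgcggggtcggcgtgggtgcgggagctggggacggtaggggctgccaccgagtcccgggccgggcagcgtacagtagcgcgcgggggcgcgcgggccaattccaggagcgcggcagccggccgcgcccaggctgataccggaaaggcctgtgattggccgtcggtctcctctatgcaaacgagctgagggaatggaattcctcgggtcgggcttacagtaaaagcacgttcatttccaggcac

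An E-box was found at 8 of the 9 start sites, and the same motif occurred in 66.2% of the 32851 windows of equal length in the table. The form CAGCTG, which is contained in CANNTG, was found at 4 of the 9 start sites, against 13.0% of all windows. Chrna1 held it with its first base 92 and 44 bases before the start, Chrng at 155 and 132 bases, Chrne at 138 bases and Musk at 68 bases. The third motif searched was CCGGAA on either strand, the core of the N-box, a site of ETS factors known from receptor promoters. It was found at 3 start sites and in 12.0% of all windows: in Chrne 76 bases before the start, in Gadd45a at 23 bases and in the proximal Runx1 window at 106 bases. These are matches of letters and no evidence of binding. The RefSeq start of Chrng lies 1154 bases from the start of the gene model in GENCODE M21, so a longer model begins upstream of the window shown. Reads per gene do not separate the 2 Runx1 starts.

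Esr1, which checks the labels, was read in CPM (counts relative to the size of each library, after TMM correction), and libraries are given in the order of their numbers throughout. Its level was 6.75, 9.43 and 7.46 CPM in the 3 MERKO libraries and 25.1, 34.1 and 31.1 CPM in the 3 control libraries. Every MERKO library was below every control library. The libraries held between 14935532 and 44282448 counts. Control 3 was the deepest and had 0.043% of its counts in an rRNA gene model, against 6.19% to 32.4% elsewhere. The 10 markers of muscle fibres, among them Ckm, Acta1 and the fast myosin Myh4, summed to between 121101 and 178427 CPM, and none was at 0. Slow-fibre markers summed to 542 CPM in MERKO 1 and 563 CPM in control 1, against 44.3 to 56.4 CPM in the other 4 libraries. Over the 12 tendon markers the sum ran from 91.7 to 449 CPM in MERKO and from 34.6 to 92.7 CPM in control, with 11 markers higher and 1 lower. Over the 10 adipocyte markers it ran from 455 to 1071 CPM and from 1229 to 2536 CPM, with all 9 tested markers lower in MERKO. Car3 was the largest contributor to the adipocyte sum in every library, so the sum leans on that gene. It stood at 284, 285 and 799 CPM in MERKO and 952, 1237 and 1263 CPM in control. No defining marker of either list was at 0 in all libraries. Of the 10 motor axon markers, 5 had 0 counts in every library, among them Chat and Slc18a3, the defining genes of motor neurons. No motor axon marker had enough counts for the test. The 10 summed to 0.529 to 0.758 CPM in MERKO and 0.237 to 0.504 CPM in control, which rests on few reads and is no measure of nerve supply. In whole muscle, fewer cells of a type and less RNA per cell cannot be told apart.

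None of the 9 tested members differed between MERKO and control after adjustment over all genes (edgeR quasi-likelihood test, lowest adjusted p = 0.665, threshold 0.05). Across all genes, 0.00734% of 13628 tested genes passed, which is Esr1 alone. DESeq2 and limma-voom also called 0 members. At an unadjusted p under 0.05 there was 1 member, Runx1, or 11.1% of those tested, against 7.04% of all genes. The groups did not overlap in 1 of the 9, again Runx1, against 13.3% of all genes tested (6.17% higher and 7.1% lower in MERKO). Of the 9, 5 had a fold change above 0 and 4 below, with a median log2 fold change of 0.15, where all tested genes had a median of 0.01.

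**Figure D1:**
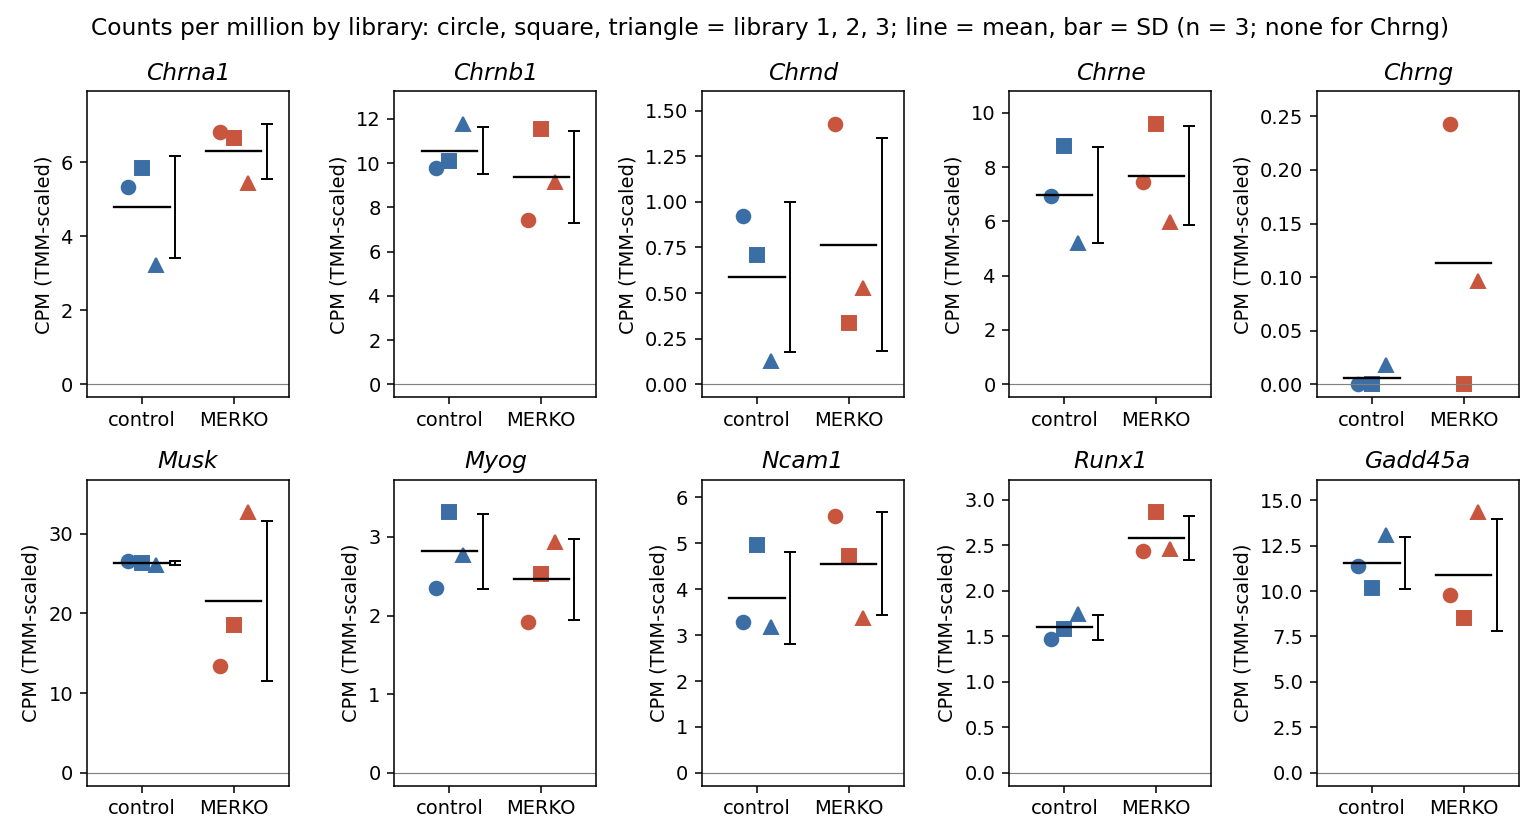
CPM (vertical axis, linear, TMM-scaled) of the 10 members in each of the 3 control and 3 MERKO libraries, with the group mean as a line and the SD as a bar (none for Chrng). Runx1 is the gene in which all MERKO points (2.43 to 2.86 CPM) lie above all control points (1.47 to 1.75 CPM), and the 3 control points of Musk nearly coincide.

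Chrna1 (ENSMUSG00000027107.3, GRCm38 chromosome 2, 73563215 to 73580338, minus strand) encodes the α subunit, which carries the binding site for acetylcholine. It stood at 6.81, 6.65 and 5.44 CPM in the 3 MERKO libraries and 5.34, 5.84 and 3.23 CPM in the 3 control libraries. MERKO 1 and MERKO 2 exceeded all controls, MERKO 3 lay between controls, and control 3 was the lowest of the 6. The log2 fold change was 0.43 (SE 0.23, 95% interval -0.11 to 0.96, edgeR adjusted p = 0.713). Without control 3 it was 0.18.

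Chrnb1 (chromosome 11, 69784036 to 69795943, minus strand) encodes the β subunit, a structural part of the channel. Its levels were 7.42, 11.5 and 9.14 CPM in the 3 MERKO libraries and 9.79, 10.1 and 11.8 CPM in the 3 control libraries. The groups overlapped, with the lowest value in MERKO 1 and the highest in control 3 (log2 fold change -0.20, 95% interval -0.59 to 0.20, edgeR adjusted p = 0.816). Control 3 was thus the lowest library for Chrna1 and the highest for Chrnb1.

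Chrne (chromosome 11, 70614883 to 70619216, minus strand) encodes the adult ε subunit. It was measured at 7.45, 9.60 and 5.97 CPM in the 3 MERKO libraries and 6.93, 8.76 and 5.22 CPM in the 3 control libraries. In each group library 2 was high and library 3 low, and the ranges overlapped almost wholly. The log2 fold change was 0.15 (95% interval -0.38 to 0.69, edgeR adjusted p = 0.899), and it fell just below 0 without MERKO 2 or without control 3.

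Chrnd and Chrng are neighbours on chromosome 1, with 4586 bases between them and no other gene starting in the gap. Chrnd (87190607 to 87200070, plus strand), the δ subunit, had few reads: 47, 4 and 11 counts in the 3 MERKO libraries against 22, 9 and 7 in the 3 controls. As CPM these were 1.43, 0.337 and 0.529 in MERKO, and 0.924, 0.710 and 0.129 in control. The highest value of each group belonged to MERKO 1 and control 1, the 2 libraries rich in slow-fibre markers, whose part in the difference was not tested. Counting error alone gives exact Poisson 95% intervals of 1.05 to 1.90 CPM for MERKO 1 and 0.0517 to 0.265 CPM for control 3, which do not overlap. The intervals of control 1 (0.579 to 1.40 CPM) and control 2 (0.325 to 1.35 CPM) overlapped. The spread within each group, 4.24-fold in MERKO and 7.18-fold in control, was larger than the difference between groups (log2 fold change 0.68, 95% interval -1.08 to 2.43, edgeR adjusted p = 0.858). Without MERKO 1 the log2 fold change was -0.23, and without control 1 it was 1.41.

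Chrng (87204657 to 87212694, plus strand), the fetal γ subunit, was close to undetected and was not tested. It had 8, 0 and 2 counts in the 3 MERKO libraries against 0, 0 and 1 in the 3 controls. A count of 0 allows up to 3 counts, or 0.253 CPM in MERKO 2, 0.126 CPM in control 1 and 0.237 CPM in control 2. MERKO 1 stood at 0.243 CPM (exact Poisson 95% interval 0.105 to 0.479), and the lower end of this interval is below each of these limits. The interval thus overlaps what MERKO 2, control 1 and control 2 allow, which does not show that the levels were alike. Control 3, with 1 count, stood at 0.0184 CPM (0.000465 to 0.102), and its interval ended just below that of MERKO 1. No test between single libraries was run. These limits and intervals cover counting error only, since reads without molecular identifiers are not independent molecules.

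To compare subunits with each other, CPM were divided by the kilobases of merged exons in GENCODE M21. In control the level per kilobase was 4.17 ± 0.42 for Chrnb1, 4.12 ± 1.05 for Chrne, 1.10 ± 0.31 for Chrna1 and 0.18 ± 0.13 for Chrnd (CPM per kilobase, SD, n = 3). In MERKO the levels were 3.70 ± 0.82 for Chrnb1, 4.54 ± 1.08 for Chrne, 1.44 ± 0.17 for Chrna1 and 0.23 ± 0.18 for Chrnd. Chrnb1 and Chrne overlapped in control and were not separable in order, whereas Chrna1 lay below both and Chrnd below Chrna1 without overlap. Chrng lay lowest of all members, at 0.00442 CPM per kilobase in control 3 and 0.0584 in MERKO 1. Over all members in control, Musk (6.98 ± 0.06) and Gadd45a (6.54 ± 0.82) lay above the subunits and overlapped each other, Myog (1.88 ± 0.32) lay between Chrne and Chrna1, Ncam1 (0.44 ± 0.12) between Chrna1 and Chrnd, and Runx1 (0.13 ± 0.01) overlapped Chrnd. The adult subunit Chrne made up 45.4% ± 3.62 of the summed subunit level in MERKO and 42.6% ± 6.09 in control. Merged exon length counts every annotated exon, so a subunit with long untranslated exons that muscle does not use would be placed too low.

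**Figure D2:**
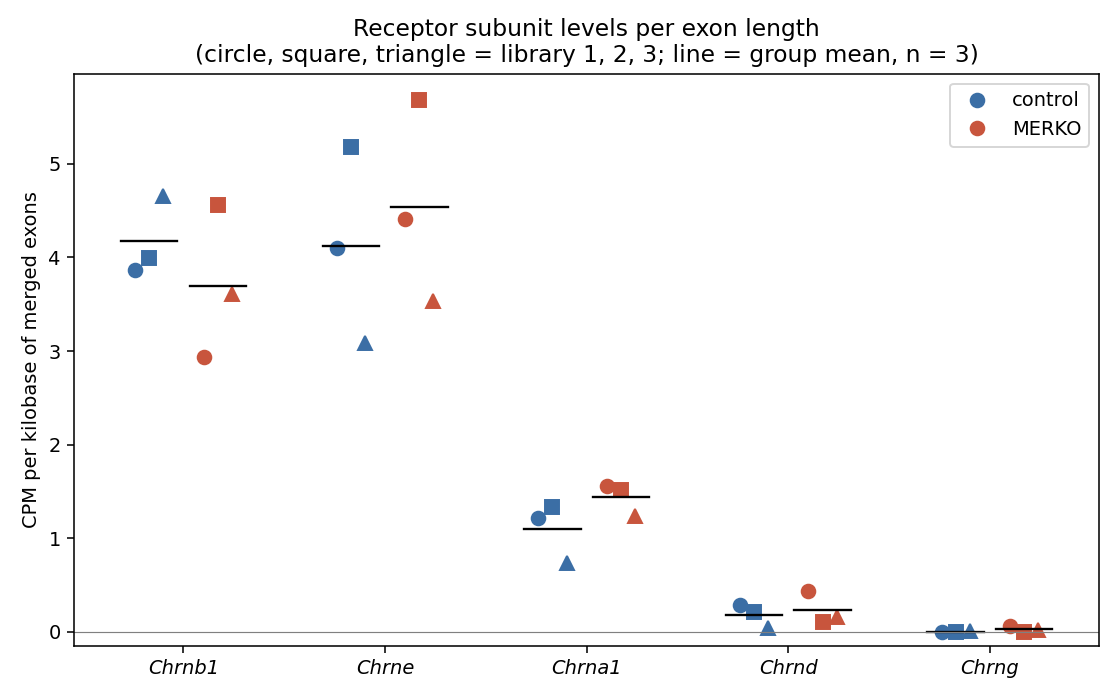
CPM per kilobase of merged exons (vertical axis, linear) for the 5 receptor subunits in each control and MERKO library, with group means as lines. Chrnb1 and Chrne lie highest with overlapping points, Chrna1 lies between 0.738 and 1.55, and Chrnd and Chrng lie near 0.

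The change from fetal to adult receptor was followed by the log2 ratio of Chrng to Chrne within a library, per exon length and with 0.5 counts added. The MERKO libraries had ratios of -6.15, -9.14 and -6.94, and the controls had -9.67, -9.10 and -8.87. Chrne thus exceeded Chrng by a wide margin in all 6 libraries, and where Chrng had 0 counts the added 0.5 counts set the value. The groups overlapped, and the mean difference of 1.80 was not separable from the spread (exact two-sided permutation p = 0.3, where 0.1 is the smallest p possible; adjusted p = 0.4 over 4 ratios). The ratio of Chrne to Chrna1 was lower in MERKO by a mean log2 difference of -0.29, that of Chrnb1 to Chrna1 by -0.62, and that of Chrnd to Chrna1 differed by 0.11. None of these separated the groups (exact permutation p = 0.2, 0.2 and 0.9).

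The 11 nicotinic subunits known from neurons served as a further comparison. None had enough counts for the test, and Chrna3, Chrna6, Chrnb3 and Chrnb4 had 0 counts in all libraries. Their summed level was between 0.253 and 2.46 CPM. Chrna2 was the largest contributor in MERKO 1 (1.79 CPM) and control 1 (0.966 CPM), the 2 libraries that were also highest for Chrnd. Chrna2 was singled out after its values were seen.

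Musk (ENSMUSG00000057280.15, chromosome 4, 58285960 to 58374303, plus strand) is the kinase that clusters receptors. It stood at 13.4, 18.6 and 32.7 CPM in the 3 MERKO libraries and 26.6, 26.4 and 26.1 CPM in the 3 control libraries. The control libraries differed by 1.02-fold from lowest to highest and the MERKO libraries by 2.44-fold, with MERKO 3 above all controls and the other MERKO libraries below them. The log2 fold change was -0.29 (95% interval -0.93 to 0.35, edgeR adjusted p = 0.836). It was -0.03 without MERKO 1 and -0.73 without MERKO 3. MERKO 1 also had the lowest sum of muscle fibre markers, at 121101 CPM against at least 152042 CPM in the other libraries. The largest contributor was the fast myosin Myh4, at 39867 CPM in MERKO 1 and 55646 to 81221 CPM elsewhere, whereas Myh1 was highest in MERKO 1 (10132 CPM). The part of fibre make-up in the Musk values was not tested.

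Myog (ENSMUSG00000026459.5, chromosome 1, 134289989 to 134292548, plus strand) encodes myogenin, the factor that drives receptor genes through E-boxes. Its levels were 1.92, 2.52 and 2.94 CPM in the 3 MERKO libraries and 2.35, 3.31 and 2.77 CPM in the 3 control libraries. The values of the groups interleaved, and MERKO 1 was the lowest library, as it was for Musk. The log2 fold change was -0.19 (95% interval -0.74 to 0.35, edgeR adjusted p = 0.869). Satellite cells, which make myogenin when they differentiate, were followed by Pax7, Myf5 and 6 further markers. Their sum ran from 54.8 to 60.0 CPM in MERKO and from 46.5 to 65.8 CPM in control, so the MERKO range lay inside the control range. Sdc4 and Cdh15 were its largest contributors, so it says little about Pax7. Of the 7 markers tested, 3 had a fold change above 0 and 4 below, and 0 passed in the edgeR test. Pax7 was low, at 0.547, 1.85 and 0.674 CPM for MERKO against 1.43, 1.42 and 1.47 CPM for control (log2 fold change -0.63, 95% interval -1.66 to 0.41). Chodl went the other way (0.68, -0.11 to 1.47). The part of satellite cells in the Myog values was not tested.

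Ncam1 (ENSMUSG00000039542.15, chromosome 9, 49502136 to 49798925, minus strand) encodes an adhesion molecule of junctions, denervated fibres, satellite cells and Schwann cells. It stood at 5.59, 4.71 and 3.37 CPM in the 3 MERKO libraries and 3.28, 4.97 and 3.18 CPM in the 3 control libraries. The groups overlapped, with MERKO 1 highest (log2 fold change 0.30, 95% interval -0.27 to 0.88, edgeR adjusted p = 0.803). Schwann cell markers, of which none of the 12 was at 0 in all libraries, summed to 60.3 to 86.2 CPM in MERKO and 55.5 to 65.3 CPM in control, with MERKO 1 highest there too. Of the 10 Schwann markers tested, 9 had a fold change above 0 and 1, Scn7a, below, with a median log2 fold change of 0.46. None passed after adjustment in the edgeR test. At an unadjusted p under 0.05 there were 4 (40%), against 7.04% of all genes. The groups did not overlap in 4 (40%), 3 higher and 1 lower, against 13.3%. The part of Schwann cells in the Ncam1 values was not tested.

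Runx1 (ENSMUSG00000022952.16, chromosome 16, 92601466 to 92826149, minus strand) encodes a transcription factor that denervated fibres induce and that blood and other cells also make. It stood at 2.43, 2.86 and 2.45 CPM in the 3 MERKO libraries and 1.47, 1.58 and 1.75 CPM in the 3 control libraries. All MERKO libraries were above all control libraries, and the libraries within a group differed by 1.18-fold in MERKO and 1.19-fold in control. The log2 fold change was 0.67 (SE 0.21, 95% interval 0.19 to 1.15), a ratio of 1.59, but it did not pass the edgeR test (adjusted p = 0.665 over all genes). When any library was left out the log2 fold change lay between 0.61 and 0.75. Over all alternatives the adjusted p ran from 0.305 to 0.999.

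The cell types that could bring Runx1 transcripts were set beside it. The 10 immune markers summed to 33.3 to 57.4 CPM in MERKO and 31.0 to 49.8 CPM in control. Of the 6 tested, 5 had a fold change above 0 and 1 below, the median being 0.30 on the log2 scale, and no immune marker was at 0 in all libraries. Tendon and adipocyte markers, with the ranges given above, had higher and lower sums in MERKO. The part of immune, tendon and fat cells in the Runx1 difference was not tested. An antisense gene that shares 0.881% of the Runx1 exon bases, Gm26626, had 0 counts in every library.

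Gadd45a (ENSMUSG00000036390.8, chromosome 6, 67035096 to 67037457, minus strand) encodes a stress protein that rises in denervated and wasting muscle. It stood at 9.76, 8.50 and 14.3 CPM in the 3 MERKO libraries and 11.4, 10.2 and 13.1 CPM in the 3 control libraries. The MERKO range enclosed the control range (log2 fold change -0.09, 95% interval -0.55 to 0.37, edgeR adjusted p = 0.932). The noncoding gene E230016M11Rik on the opposite strand shares 19.1% of the Gadd45a exon bases and had 26 to 76 counts per library. The strand setting of the counting is not given in the sources used here, so reads from the shared stretch are uncertain.

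**Figure D3:**
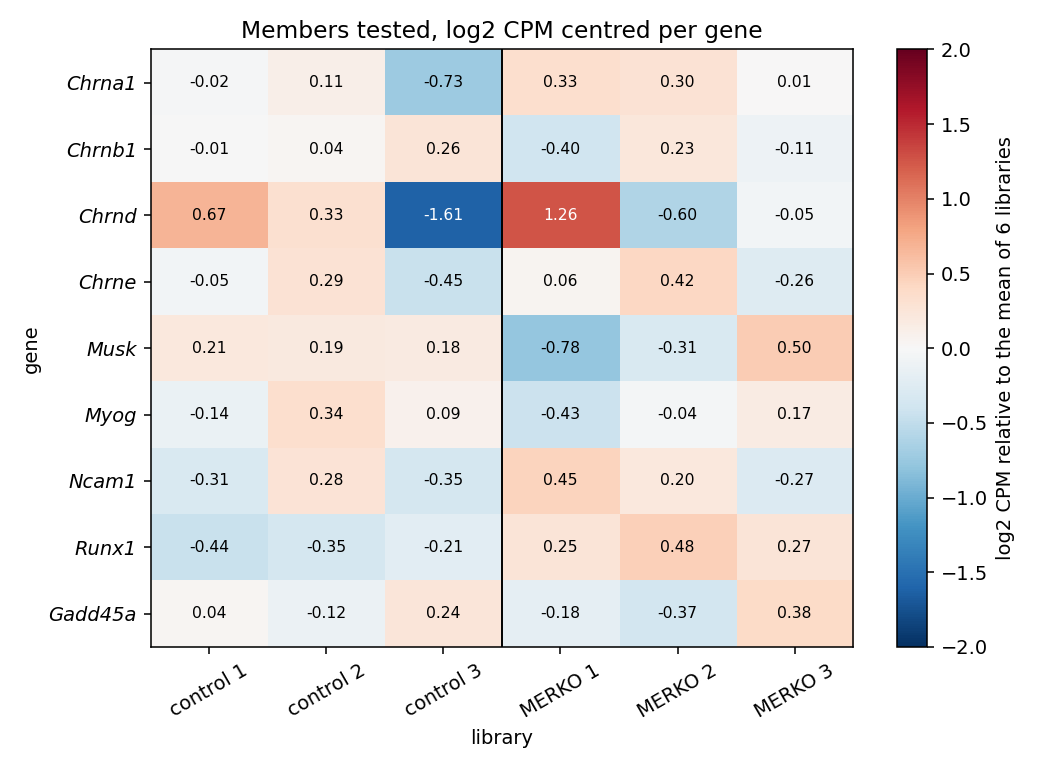
Log2 CPM of the 9 tested members (rows) in each library (columns, control left of the line and MERKO right), relative to the mean of the 6 libraries. Runx1 is negative in all control and positive in all MERKO libraries, while Chrnd spans from -1.61 in control 3 to 1.26 in MERKO 1.

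The members did not move as a block across libraries. Relative to its own mean over the 6 libraries, MERKO 1 was at 1.26 for Chrnd, 0.45 for Ncam1 and 0.33 for Chrna1 on the log2 scale, and at -0.78 for Musk, -0.43 for Myog and -0.40 for Chrnb1. Control 3 was at -1.61 for Chrnd, -0.73 for Chrna1 and -0.45 for Chrne, and at 0.26 for Chrnb1. Receptor subunits of the same channel therefore lay on opposite sides of their means in these 2 libraries. The genes nearest in profile were found by the mean absolute difference of centred log2 CPM over the 6 libraries, among 10268 candidates. Chrna1 was nearest to Nes (nestin, difference 0.0311), Tmem245 (0.0754) and Cspg4 (NG2 proteoglycan, 0.077). Nes stood at 42.4, 41.8 and 37.1 CPM in the 3 MERKO libraries and 34.2, 36.7 and 20.9 CPM in the 3 control libraries, with its lowest value in control 3 as for Chrna1. Chrne was nearest to Cd46 (0.0915), Musk to Epb41l4aos (0.0819) and the methyltransferase gene Smyd2 (0.0991), and Myog to the histocompatibility gene H2-K1 (0.0569), Tigar (0.0571) and Ahcy (0.0608). Further along these lists were H3f3aos (0.0992) and Ift140 (0.102) for Chrne and Pou4f1 (0.114) for Musk.

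The other genes of the junction were examined next, as a list of 38 that held agrin, its receptor and the proteins of the postsynaptic membrane. Of these, 37 were tested and 0 passed in the edgeR test, in DESeq2 or in limma-voom. The fold change was above 0 in 27 and below 0 in 10, with a median log2 fold change of 0.08. At an unadjusted p under 0.05 there were 4 (10.8%), against 7.04% of all genes. The groups did not overlap in 8 (21.6%), 5 higher and 3 lower, against 13.3%. The 1 untested gene was Nrg1, with 0 counts in every library.

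Along the agrin pathway no gene passed, and all 6 intervals included 0, which does not show that the levels were alike. Agrn, which encodes agrin, stood at 11.7 ± 0.93 and 10.1 ± 1.41 CPM (SD, n = 3; log2 fold change 0.22, 95% interval -0.09 to 0.54). Lrp4, the agrin receptor, stood at 14.6 ± 2.83 and 11.5 ± 2.36 CPM (0.36, -0.09 to 0.81). Dok7, the adaptor that activates MuSK from inside the fibre, was at 16.6 ± 5.02 and 16.7 ± 6.45 CPM (-0.01, -0.67 to 0.66), with 22.4 CPM in MERKO 1, 24.1 CPM in control 1 and 12.2 to 14.1 CPM in the other 4 libraries. The high libraries were again those rich in slow-fibre markers, whose part was not tested. Rapsn, the scaffold under the receptor, had the narrowest interval of this group, at 15.7 ± 0.70 and 16.5 ± 1.26 CPM (-0.07, -0.31 to 0.17). Ache, which breaks down acetylcholine, stood at 20.7 ± 3.07 and 19.4 ± 3.88 CPM (0.10, -0.30 to 0.50). Colq, its collagen tail, stood at 2.71 ± 0.24 and 3.39 ± 1.42 CPM (-0.27, -1.02 to 0.49). The adjusted p-values of these 6 genes in the edgeR test were between 0.713 and 0.997.

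The junction genes with the lowest p were Macf1, Vezt and Lama5, and none of them passed. Macf1, a linker of microtubules and actin, stood at 178, 190 and 168 CPM in the 3 MERKO libraries and 136, 156 and 112 CPM in the 3 control libraries, without overlap (log2 fold change 0.41, 95% interval 0.10 to 0.72, edgeR adjusted p = 0.67). Vezt, an adherens junction protein, was at 33.2, 32.3 and 35.2 CPM in the MERKO libraries and 36.8, 40.1 and 41.6 CPM in the control libraries (-0.24, -0.44 to -0.03, adjusted p = 0.683). Lama5, a laminin chain of the basement membrane, was at 30.3, 35.4 and 30.3 CPM in the MERKO libraries and 29.5, 25.9 and 24.4 CPM in the control libraries (0.26, 0.01 to 0.52, adjusted p = 0.692). Each of the 3 separated the groups by a small margin. Having been chosen by p, they carry intervals that ignore that choice.

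**Figure D4:**
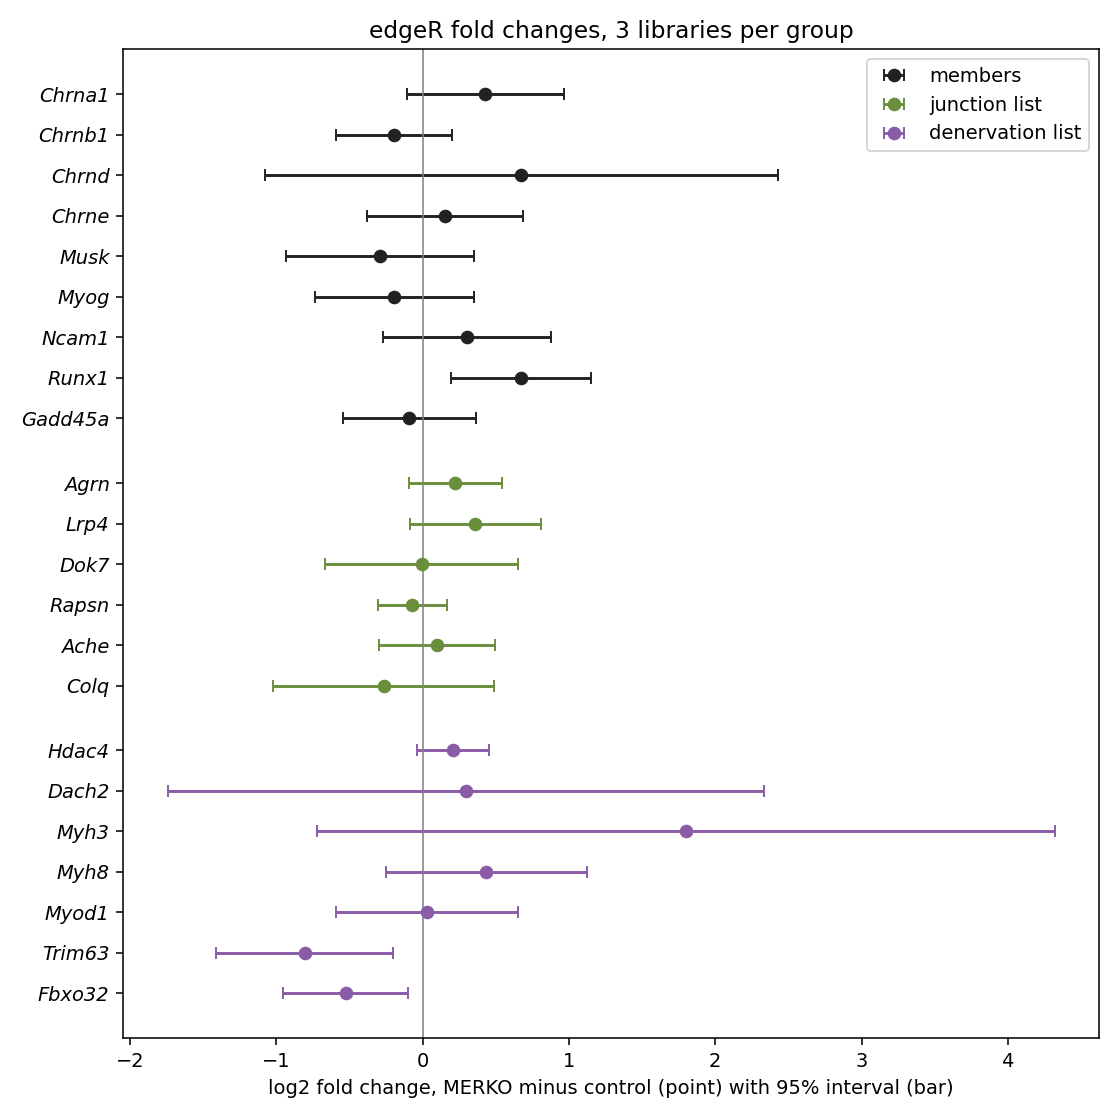
Log2 fold change of MERKO minus control (horizontal axis) with its 95% interval from edgeR for the 9 tested members, 6 junction genes and 7 genes of the denervation response. The intervals of Runx1, Trim63 and Fbxo32 lie to 1 side of 0, and no gene shown passed after adjustment over all genes.

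Further genes known to respond to denervation formed a list of 24, of which 22 were tested and 0 passed in the edgeR test. DESeq2 called 1 of them, Ankrd1, and limma-voom called 0. The fold change was above 0 in 15 and below 0 in 7, with a median log2 fold change of 0.19. At an unadjusted p under 0.05 there were 6 (27.3%), against 7.04% of all genes, and the groups did not overlap in 3 (13.6%), all higher, against 13.3%. Those 6 were not of 1 direction. Ankrd1, Rrad and Sln had higher means in MERKO, and Trim63, Fbxo32 and Nnmt had lower means.

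The regulators upstream of myogenin in denervated muscle showed no separation. Hdac4, the deacetylase that accumulates after denervation, was at 31.8, 40.4 and 38.6 CPM in the 3 MERKO libraries and 32.4, 31.5 and 31.9 CPM in the 3 control libraries (log2 fold change 0.21, 95% interval -0.04 to 0.45, edgeR adjusted p = 0.713). Dach2, a repressor of myogenin that falls after denervation, stood at 9.94, 0.926 and 4.14 CPM in the MERKO libraries and 9.75, 2.52 and 0.901 CPM in the control libraries. Its high values were in MERKO 1 and control 1, the libraries rich in slow-fibre markers, and the groups overlapped (0.30, -1.74 to 2.33, adjusted p = 0.953). Myod1, a relative of myogenin, was at 8.22 ± 2.33 and 7.87 ± 2.49 CPM (SD, n = 3; 0.03, -0.59 to 0.65, edgeR adjusted p = 0.988).

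Embryonic and fetal isoforms that reappear in denervated fibres were low. Myh3, embryonic myosin, stood at 3.62, 0.758 and 0.577 CPM in the 3 MERKO libraries and 1.43, 0.0789 and 0.0551 CPM in the 3 control libraries. The first library of each group was the highest, and the groups overlapped (log2 fold change 1.80, 95% interval -0.72 to 4.32, edgeR adjusted p = 0.732). Without a composition factor Myh3 passed (edgeR adjusted p = 0.0479). Myh8, perinatal myosin, was at 3.94 ± 0.83 and 3.00 ± 1.00 CPM (SD, n = 3; 0.44, -0.25 to 1.12).

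Of the ubiquitin ligase genes of muscle atrophy, Trim63 and Fbxo32 had lower means in MERKO, while Fbxo30 averaged 21.1 ± 2.56 CPM against 19.7 ± 2.10 CPM in control libraries (SD, n = 3). Trim63 (MuRF1) stood at 227, 215 and 369 CPM in the 3 MERKO libraries and 472, 339 and 602 CPM in the 3 control libraries. MERKO 3 exceeded control 2, so the groups overlapped (log2 fold change -0.80, 95% interval -1.41 to -0.20, edgeR adjusted p = 0.671). Without a filter on low counts Trim63 passed (edgeR adjusted p = 0.0494), and also with the replicate number as a block (edgeR adjusted p = 0.0217). Fbxo32 (atrogin-1) was at 393, 366 and 518 CPM in the MERKO libraries and 595, 507 and 735 CPM in the control libraries (-0.53, -0.95 to -0.10, adjusted p = 0.68), again with MERKO 3 just above control 2. The 2 genes of this list with the lowest p were Ankrd1, a stretch-responsive sarcomere protein with a log2 fold change of 1.62 (1.03 to 2.21, adjusted p = 0.597), and the small GTPase gene Rrad. Rrad stood at 1.64, 0.842 and 4.38 CPM in the 3 MERKO libraries and 0.756, 0.552 and 0.441 CPM in the 3 control libraries, without overlap (2.03, 0.69 to 3.37, edgeR adjusted p = 0.654). MERKO 3 was the highest of the 6. Ankrd1 and Rrad passed without a filter and without a composition factor. 2 further genes, chosen after their values were seen, had intervals that excluded 0. Sln, the calcium pump regulator sarcolipin, had a log2 fold change of 1.96 (95% interval 0.28 to 3.63), and Nnmt, nicotinamide N-methyltransferase, of -1.15 (-2.21 to -0.09), both with an edgeR adjusted p of 0.683. The groups overlapped in both. Sln stood at 1.70, 0.253 and 1.44 CPM in the MERKO libraries and 0.630, 0.237 and 0.129 CPM in the control libraries. Nnmt stood at 0.730, 0.758 and 1.06 CPM in the MERKO libraries and 0.966, 3.31 and 1.65 CPM in the control libraries. Control 2 was highest for Nnmt and for the sum of adipocyte markers, whose part in the Nnmt values was not tested.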

How the data were processed

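Read counts per gene from 6 quadriceps libraries were analysed as the authors deposited them, as raw counts with no normalization. Per the submitters' processing notes, the tools were STAR (2.5.2b), HTSeq (0.9.1) and DESeq, and the builds mm10 and GRCm38. The rule for strand, the release of the gene models and the handling of reads that align to more than 1 place are not given in these sources. Symbols matched 48349 of 48795 identifiers, and coordinates and exon lengths came from GENCODE M21 (GRCm38). The members and lists were chosen with earlier results of these data known.

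MERKO was compared with control by a quasi-likelihood test (edgeR 4.0.16 under R 4.3.3) after filterByExpr, TMM factors and Benjamini-Hochberg adjustment over all 13628 genes tested. The biological coefficient of variation was 18.6%. Named were all members, 6 junction genes and 8 denervation genes listed by symbol (1 of them is not reported here), the 3 lowest-p genes of each list, any list gene that passed, and the 3 nearest profiles of Chrna1, Chrne, Musk and Myog with an average log2 CPM of at least 1. Sln and Nnmt fall outside that rule and were chosen after their values were seen. Profiles used log2 CPM with a prior count of 2. Alternatives were DESeq2 1.42.0, limma-voom (limma 3.58.1), other scalings and filters, the replicate number as a block and left-out libraries. The code was tested on simulated data.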

Additional observations from a re-analysis of the deposited data

How the results depend on the processing

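In 17 alternative settings 0 members and 0 other junction genes passed the threshold. Of the other denervation genes, 1 passed with DESeq2 (Ankrd1), 3 without a composition factor (Ankrd1, Rrad and Myh3), 3 without a filter (Ankrd1, Rrad and Trim63), and 2 with the replicate number as a block (Ankrd1 and Trim63). Over all genes the count of 1 became 23 with DESeq2, 93 without a composition factor (44 higher and 49 lower, against 0 and 1), 140 without a filter, 51 with the replicate block and 7 without MERKO 1 and control 1 together. It ran from 0 to 11 when 1 library was left out: 0 without MERKO 1 or MERKO 2, 11 without MERKO 3, and 2 without control 1 or control 3. Dropping the composition factor moved the median of all genes by -0.11 on the log2 scale, and no member changed direction under any scaling.

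When 1 library was left out, the log2 fold change ran from -0.23 (without MERKO 1) to 1.41 for Chrnd, from -0.0374 (without control 3; -0.0156 without MERKO 2) to 0.337 for Chrne, and from -0.334 to 0.0531 for Gadd45a (without MERKO 2; 0.014 without control 3). The median over the members ran from -0.00696 to 0.337, with 0.307 without MERKO 3 and 0.00155 without control 3. The remaining members kept their direction, and the log2 ratio of Chrng to Chrne kept its sign, in all alternatives that gave a value. Chrnd was not tested with the filter of 1 CPM in 3 libraries or without MERKO 1 and control 1 together, since too few counts remained.

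The replicate numbers were not treated as pairs in the main test. The deviations of same-numbered libraries from their group means correlated at 0.448, 0.163 and 0.0612 across genes for numbers 1 to 3. MERKO 2 correlated more with control 3 (0.184) than with control 2, and MERKO 3 more with control 2 (0.137) than with control 3. The chi-square per degree of freedom between the counts of 2 libraries was 59.6 for MERKO 1 and control 1. It was 25.7 for MERKO 2 and control 2. For MERKO 3 it was 610 with control 3, 65.3 with control 1 and 44.6 with control 2. Libraries of the same group differed by 109.6 or more. Numbers 1 and 2 thus lay closer across groups than within them and number 3 did not. MERKO 3 also lay closer to controls 1 and 2 than to its own group. The counts kept the rRNA gene model, and the measure grows with depth. The rRNA share was 6.19% in MERKO 1 and 11.1% in control 1, 32.4% and 27.7% for number 2, and 19.2% and 0.043% for number 3. The part of rRNA and depth was not tested, so pairing is not settled. With the block the adjusted p was 0.305 for Runx1 and 0.308 for Chrna1, and the mean within-number difference of the Chrng to Chrne ratio was 1.80. Few counts limit Chrnd (100 over all libraries) and Chrng (11) most.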
